A study of Homo sapiens with 8 samples.

Results

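The genes described here are 33 mRNAs of the integrated stress response and of amino-acid supply, among 15380 genes measured in THP-1 cells. They were chosen by name: 8 transcription factors and regulators, 5 stress effectors, 2 genes of endoplasmic reticulum (ER) stress, 7 amino-acid transporters, 6 enzymes of serine and one-carbon metabolism, and 5 other enzymes of amino-acid metabolism. Each gene is represented by the 3′ UTR segment with the most reads, and all 33 were found. THP-1 is a human suspension line grown from acute monocytic leukaemia. The series asked how fast mRNAs decay, using SLAM-seq, in which 4-thiouridine (4sU) built into new RNA is alkylated and then read as T-to-C changes.

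Chase cells were given 30 µM 4sU for 12 h with fresh medium every 3 h, washed in cold buffer, moved to warm medium with 3 mM uridine, and collected at 0 h, 20 min, 40 min, 1 h, 2 h, 8 h and 12 h. The reference cells, labelled as no 4sU, are the same line. All 8 conditions have 1 library each, and the labels do not say whether the libraries came from separate cultures. P-values below therefore measure the scatter of chase libraries about a trend in time, and no condition has a replicate.

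The integrated stress response is a shared answer to amino-acid shortage, ER stress, haem shortage and viral RNA. Kinases such as GCN2 and PERK phosphorylate eIF2, bulk translation falls, and translation of ATF4 rises through the upstream open reading frames of its mRNA. ATF4 then switches on genes that import and make amino acids, along with feedback genes such as PPP1R15A, which lets eIF2 be dephosphorylated again, and DDIT3, which encodes CHOP. ATF4 binds the C/EBP-ATF response element with partner proteins.

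The core letters of that element, TGATGNAA, were searched on both strands from 250 bases before to 50 bases after the start of each gene in RefSeq promoters (GRCh38.p14). A match lay in 10 of the 28 members that had a promoter entry, 35.7%, against 2.60% of 8533 genes tested for total level and 4.46% of 27305 genes in the promoter table. The list was built largely from known ATF4 targets, so this share describes the list and no binding was measured. The windows below belong to 6 matched genes whose levels or half-lives are described most fully, with the match in capitals on the strand that carries it. They lie in the promoters chr7:97872359-97872658 (ASNS, minus strand, match starting 68 bases upstream), chr1:212565157-212565456 (ATF3), chr15:40953221-40953520 (CHAC1), chr19:46784765-46785064 (SLC1A5, 97 bases upstream), chr12:46266467-46266766 (SLC38A1) and chr11:62881449-62881748 (SLC3A2, 37 bases downstream of the start).
ASNS: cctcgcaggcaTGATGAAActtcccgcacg
ATF3: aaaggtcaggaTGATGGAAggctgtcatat
CHAC1: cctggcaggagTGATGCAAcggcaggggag
SLC1A5: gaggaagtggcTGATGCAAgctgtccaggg
SLC38A1: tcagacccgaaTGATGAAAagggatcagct
SLC3A2: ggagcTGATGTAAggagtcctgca
HERPUD1, JDP2, MTHFD1L and SLC1A4 held the other matches. No match in the remaining promoters says only that these letters are not in those windows.

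AU-rich letters in the 3′ UTR are known as landing sites of proteins that speed or slow decay. The run TATTTAT occurred in the annotated 3′ UTR (GENCODE 29) of 11 of 32 members with a measurable sequence, 34.4%, against 33.7% of 9346 genes tested for decline. The shorter ATTTA, which lies inside it, occurred in 62.5% of members against 72.2% of those genes. Members had a median 3′ UTR length of 845.5 bases against 1240 bases, and a median T content of 31.4% against 32.4% in the last 250 bases. Among members with a half-life of the labelled share under 2 h (described below), CHAC1, DDIT3, PPP1R15A and SLC38A2 held TATTTAT. DDIT4, HERPUD1 and SESN2 in that group did not. Among the 17 members from 2 to under 4 h, ATF3, MTHFD2, SLC38A1, SLC7A11, SLC7A5 and STC2 held it. The most sites per 3′ UTR were found there, 5 in SLC7A11 and 4 in SLC38A1. Among members with a half-life of 4 h or more only ALDH18A1 held it, and PHGDH had no measurable sequence. Whether the run goes with half-life was not tested. The sites below come from 4 mRNAs of the first group and from ALDH18A1, with TATTTAT in capitals.
PPP1R15A: tttattaacTATTTATtttttctaa
DDIT3: ttgtacattTATTTATtactgtccc
CHAC1: ttgaaacttTATTTATtgcaccatg
SLC38A2: ctgtaatgtTATTTATagaacaaca
ALDH18A1: gaccttttgTATTTATttgtggggt

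Gene reads summed to between 8301033 (12 h) and 11224018 (8 h) in the chase libraries and to 2916043 without 4sU. Levels are counts per 1000000 gene reads (CPM), and labelled shares are the percentage of a gene's reads that the authors counted as converted. Shares carry a 95% exact binomial (Clopper-Pearson) interval that covers counting error only, since no molecular identifiers were used. Where no read was labelled, the share said to be allowed is instead 3 divided by the number of reads. It lies below the exact upper limit, as with 8.33% against 9.74% for ATF3 at 8 h. Of all gene reads, 30.1 to 30.7% were labelled in the libraries up to 1 h, then 27.1, 10.8 and 5.53% at 2, 8 and 12 h, against 0.0121% without 4sU. None of the 8145 reads of the 33 members was labelled without 4sU, which allows a share of up to 0.0368%. All 10 monocytic markers had reads in every library, with summed levels from 1433 to 2148 CPM in the chase and 690 CPM without 4sU. Markers of other cell types, of which 8 of 11 were named in the counts, summed to between 4.82 and 6.87 CPM in the chase and 7.54 CPM without 4sU.

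CTH, which makes cysteine from cystathionine, had 3 to 18 reads per library and entered no test. CBS, the enzyme before it, could not be told from its near-identical copy CBSL, whose counts were equal. SLC7A5 and PSPH have pseudogene copies, and the sources used here do not say how reads matching such copies were assigned. Exons on the opposite strand overlap the 3′ UTR of 6 members in GENCODE 29, among them MARS over 63 bases of DDIT3 and SLC4A5 over MTHFD2. Over all libraries the partners' own segments held 4773 reads for MARS, against 2448 for DDIT3, and 39 for SLC4A5, against 19069 for MTHFD2. Whether counting used the strand is not given either, so reads of such partners within the overlap cannot be told apart.

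Labelled reads fell relative to the gene's own total in all 32 tested members. The same call was made for 95.3% of 9402 genes, and a rise for 0.0213%, so it does not set the members apart. The steepest slope was that of HERPUD1, -0.75 ± 0.05 log2 per hour (SE), and the shallowest that of PHGDH, -0.10 ± 0.02 log2 per hour. Adjusted p ran from 4.63e-14 for SLC38A2 to 0.000395 for PHGDH in edgeR's quasi-likelihood test with Benjamini-Hochberg adjustment over all genes. The median labelled share of the tested members was 50.3, 40.8, 31.2, 4.59 and 1.41% at 0, 1, 2, 8 and 12 h. Over all genes tested it was 44.5, 41.2, 33.2, 5.83 and 1.40% at those times. At the end of the pulse shares ranged from 12.3% for NUPR1 to 72.8% for PPP1R15A, and at 12 h 6 of the 33 members had no labelled read, which at their depth allows shares of up to 1.30% (MTHFD1L) to 20% (CTH).

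**Figure D1:**
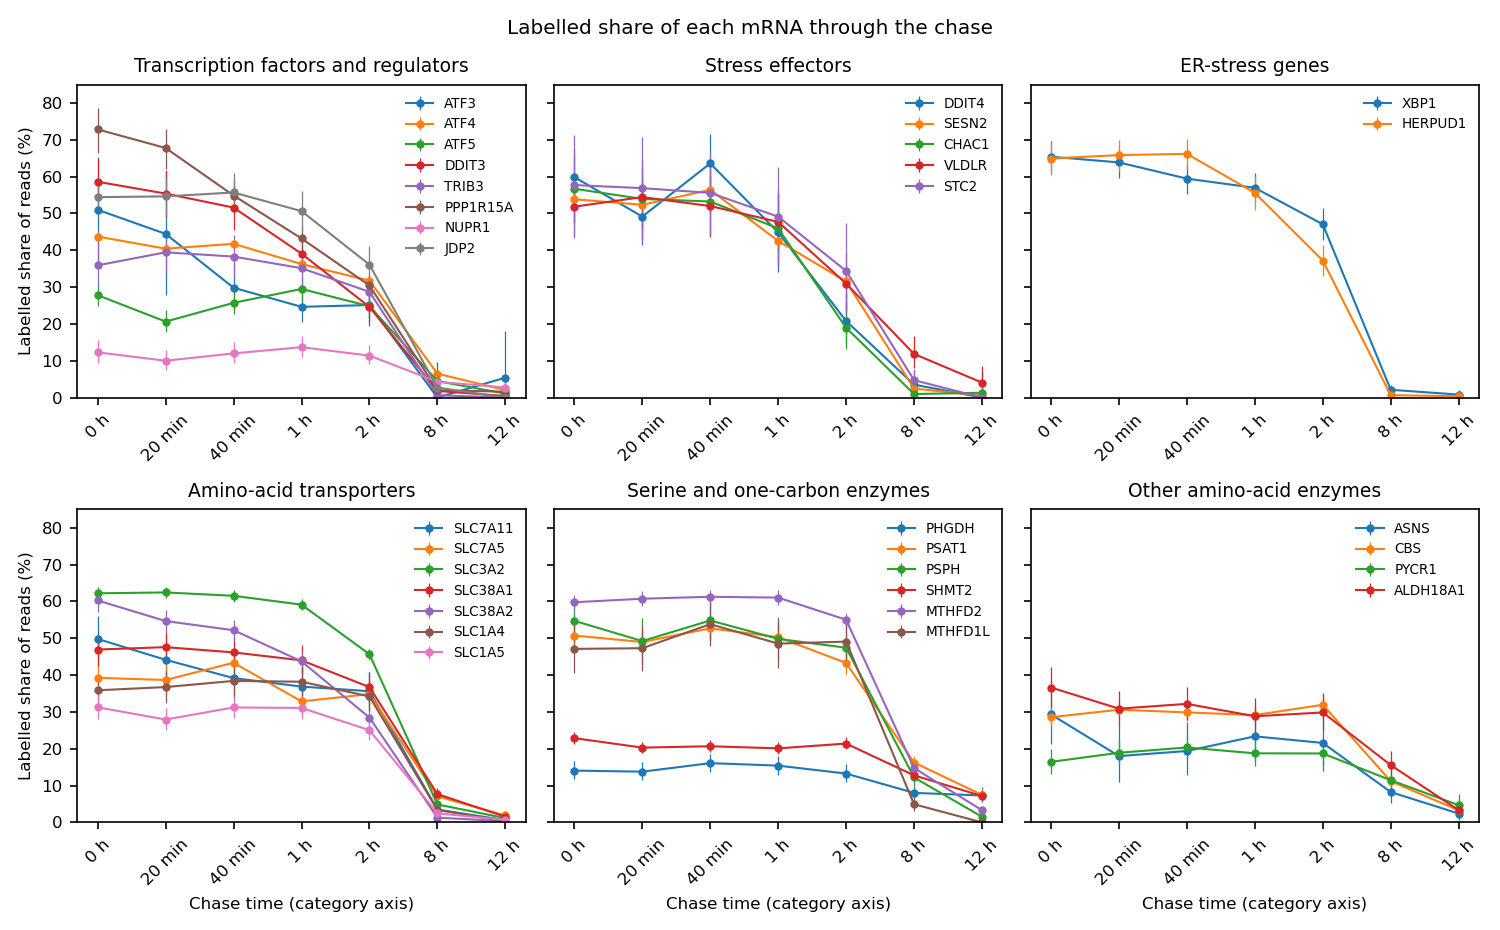
Labelled share of reads (%) of the 32 tested members against chase time (category axis), in panels by role; bars are 95% exact binomial intervals. PPP1R15A starts at 72.8% and is near 2% by 8 h, while PHGDH and SHMT2 start at 14.1% and 22.9% and still hold 8.01% and 12.8% at 8 h.

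Half-lives of the labelled share were shortest by median in ER-stress genes and stress effectors and longest in enzymes. The fitted half-life had a median of 2.61 h over the 32 members, with quartiles at 2.06 and 3.81 h, against 2.72 h over 8831 resolved genes, with quartiles at 2.16 and 3.99 h. It was below that all-gene median in 17 members. By role the median was 2.33 h for regulators, 1.99 h for stress effectors, 1.95 h for the pair of ER genes, 2.44 h for transporters, 4.07 h for serine and one-carbon enzymes and 4.88 h for the other enzymes. The medians describe the list, and differences between roles were not tested.

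Under 2 h lay 7 members: CHAC1 at 1.54 ± 0.30 h (SE), PPP1R15A at 1.56 ± 0.16 h, DDIT3 at 1.59 ± 0.12 h, SLC38A2 at 1.60 ± 0.12 h, DDIT4 at 1.71 ± 0.38 h, HERPUD1 at 1.75 ± 0.29 h and SESN2 at 1.99 ± 0.26 h. These encode a glutathione-degrading enzyme, the eIF2 phosphatase subunit GADD34, the transcription factor CHOP, a neutral amino-acid transporter, the mTORC1 inhibitors REDD1 and sestrin 2, and an ER-membrane protein of protein quality control. PPP1R15A and CHAC1 stood at percentiles 3.64 and 3.28 of all resolved genes. SESN2, the longest of the 7, stood at percentile 17.4, so half-lives under 2 h were not particular to the members. These values describe the labelled share and not the labelled level. At 2 h the labelled CPM of PPP1R15A and SESN2 stood at 184% and 113% of that at 0 h, so no net loss of labelled reads was seen by then. In the rest of this group it ran from 35.3% (DDIT4) to 69.8% (DDIT3).

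Half-lives of 4 h or more were found in 8 of the 32 members. The upper quartile of all resolved genes was 3.99 h, so this count lies near the background. PHGDH, the first enzyme of serine synthesis, had the longest at 10.1 ± 1.6 h, followed by SHMT2 at 8.66 ± 1.15 h and PYCR1, the last enzyme of proline synthesis, at 7.99 ± 1.78 h. NUPR1, a small stress-induced nuclear protein, had 5.32 ± 0.91 h, ALDH18A1, the first enzyme of proline synthesis, 5.09 ± 0.87 h, CBS 4.66 ± 0.80 h, PSAT1 4.51 ± 0.34 h and ASNS 4.36 ± 0.73 h. The 95% intervals of PHGDH (7.47 to 13.7 h) and PSAT1 (3.89 to 5.24 h) do not overlap, although both act in the same short pathway.

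The other 17 half-lives lay from 2 to 4 h. Among regulators these were TRIB3 at 2.01 ± 0.42 h, JDP2 at 2.08 ± 0.30 h, ATF3 at 2.59 ± 1.07 h, ATF4 at 2.91 ± 0.20 h and ATF5 at 3.00 ± 0.53 h. The remaining 6 transporters ran from SLC7A11 at 2.18 ± 0.24 h to SLC7A5 at 3.09 ± 0.38 h, and neighbours in that order did not differ beyond their errors. STC2 and VLDLR among effectors had 2.08 ± 0.20 h and 3.37 ± 0.32 h, XBP1 had 2.14 ± 0.33 h, and MTHFD1L, PSPH and MTHFD2 had 2.63 ± 0.61, 3.37 ± 0.44 and 3.62 ± 0.50 h. A half-life of the share counts unlabelled RNA made after the wash as loss. Fitted instead to labelled reads per library total, it moved by 1 SE or more on the log scale in 16 members. The median of members was then 3.04 h. The move was over 1.5 times for PPP1R15A (2.45 h), STC2 (3.52 h), ASNS (6.57 h) and PYCR1 (5.31 h). With the starting share fixed at its 0 h value, 10 moved by that much, and the median of members was 3.015 h. ATF3 then had 1.39 h in place of 2.59 h. The SEs do not cover the choice of libraries. From the 0 to 2 h libraries only, 27 half-lives moved by 1 SE or more on the log scale and 5 did not. MTHFD2 then had 15.7 h, SLC1A4 26.7 h and DDIT3 1.59 h. Those of ATF5, NUPR1, MTHFD1L, CBS and PYCR1 reached the 1000 h limit of the fit. From the 1 to 12 h libraries only, 15 moved, and the median of members was 2.24 h.

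**Figure D2:**
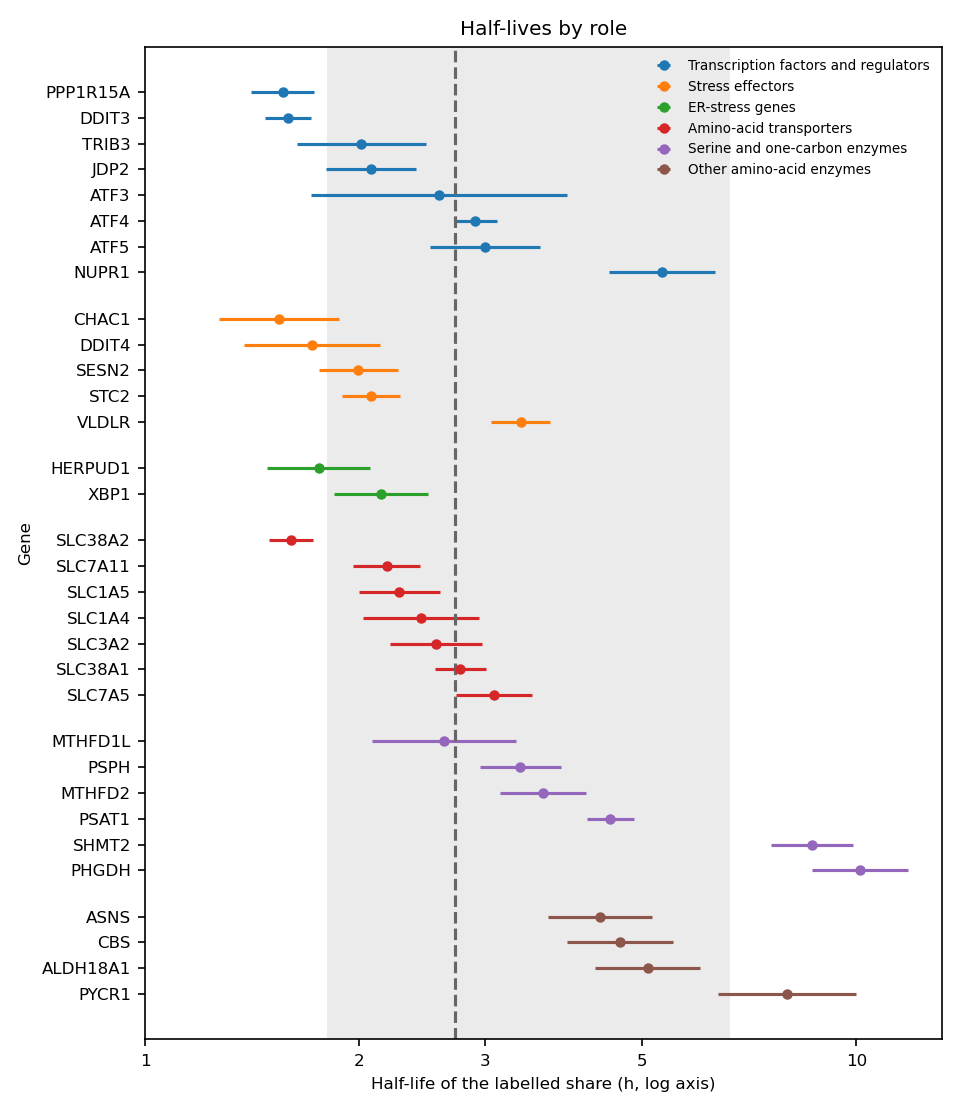
Half-life of the labelled share (h, log axis) of each tested member by role, with bars for 1 SE on the log scale; the dashed line is the median of all resolved genes (2.72 h) and the band spans their 10th to 90th percentiles. Effectors and ER genes lie mostly left of the line, and ASNS, CBS, ALDH18A1 and PYCR1 all lie right of it.

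In the first 2 h after the wash 5 members rose in total level and none fell. PPP1R15A, SESN2, DDIT3, SLC38A2 and ATF4 passed the test of total counts against hours over the 5 libraries from 0 to 2 h, against 4.17% of 10528 genes called higher and 1.06% called lower. The count of 0 lower members came from edgeR. DESeq2 also gave 0. In edgeR 3 members were lower and 9 higher at an unadjusted p under 0.05. The share of all genes at that unadjusted threshold was not counted, so these 2 numbers have no background. The rise in edgeR was 2.04 ± 0.27 log2 units over 2 h for PPP1R15A (SE, adjusted p = 0.000285), 1.09 ± 0.17 for SESN2 (adjusted p = 0.000886) and 0.80 ± 0.15 for DDIT3 (adjusted p = 0.00411). It was 0.43 ± 0.08 for SLC38A2 (adjusted p = 0.00538) and 0.24 ± 0.05 for ATF4 (adjusted p = 0.0108). Without the 2 h library the calls for SESN2, DDIT3, SLC38A2 and ATF4 were lost (adjusted p = 0.217, 0.204, 0.225 and 0.436), and that of ATF4 also without the 20 min library (adjusted p = 0.0504). PPP1R15A kept its call under every alternative run.

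Over the whole chase 19 of 32 members changed in the test of a smooth curve in time, against 51.8% of 10643 genes. In the test of a straight trend over 12 h 10 members rose and 5 fell, against 27.4% and 23.9% of those genes, so the counts lie near the background. The median trend of the members was -0.08 log2 units over 12 h, against 0.02 over all genes. Trends were scaled by TMM, which lowers levels relative to CPM by 0.19 log2 units at 8 h and 0.15 at 12 h. Folds over 0 h at 8 and 12 h are therefore given on the TMM scale. In these bulk samples fewer cells with an mRNA and less of it per cell cannot be told apart.

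**Figure D3:**
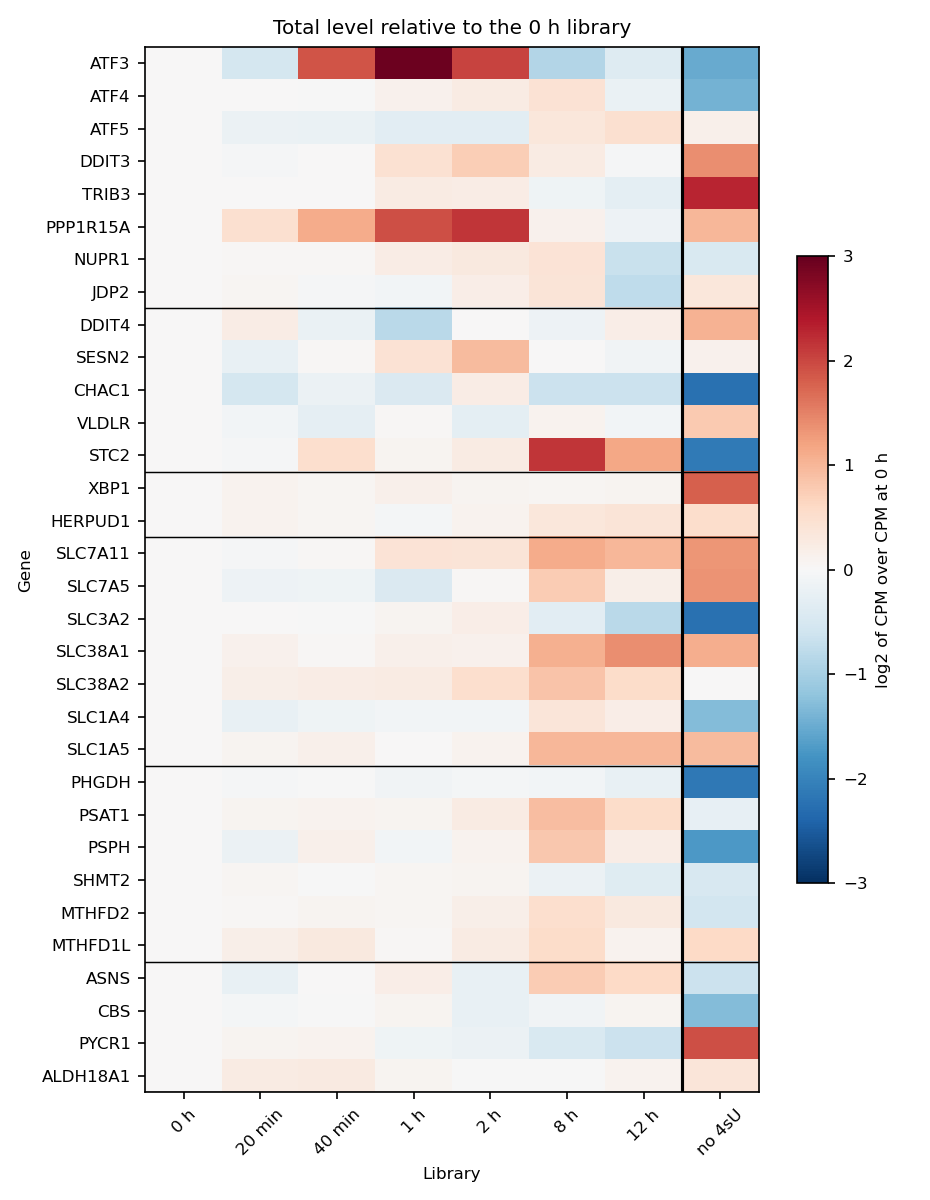
Total level of each tested member as log2 of CPM over its CPM at 0 h (colour), by library, with the library without 4sU right of the black line and roles divided by lines. ATF3 and PPP1R15A are highest at 1 to 2 h, transporters such as SLC38A1 and SLC1A5 at 8 to 12 h, and the column without 4sU holds strong values of both signs.

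Among the regulators, ATF3, a stress-induced factor of the ATF family, had the largest fold over 0 h of all members. ATF3 had 5.86 CPM at 0 h, 4.08, 21.8, 45.1 and 23.9 CPM at 20 min, 40 min, 1 h and 2 h, and 3.21 and 4.46 CPM at 8 h and 12 h, against 2.06 CPM without 4sU. The level at 1 h was 7.70 times that at 0 h, and by 8 h it was back below the 0 h level. Its labelled reads also stood higher after the wash, at 2.99 CPM at 0 h, 11.1 CPM at 1 h and 0 of 36 reads at 8 h, which allows a share of up to 8.33%. The labelled share was 51.0% (interval 36.6 to 65.2%) at 0 h, 24.6% (interval 20.5 to 29.1%) at 1 h and 25.1% (interval 19.5 to 31.5%) at 2 h. ATF3 changed over the chase (curve, adjusted p = 0.00252), while its straight early trend of 1.98 ± 0.78 log2 units did not pass (adjusted p = 0.175). Without the 2 h library the early trend passed (adjusted p = 1.32e-08), as it did without the 1 h library (adjusted p = 0.0161), over a range up to 0.507 among the alternatives.

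PPP1R15A directs protein phosphatase 1 to eIF2 and so ends the response. PPP1R15A had 24.9 CPM at 0 h, 34.5, 53.9, 95.3 and 109.8 CPM at 20 min, 40 min, 1 h and 2 h, and 27.3 and 22.5 CPM at 8 h and 12 h, against 50.1 CPM without 4sU. Its level was higher in each successive library up to 2 h and was close to its 0 h level again at 8 and 12 h. Labelled reads were 18.1 CPM at 0 h, 23.4, 29.6, 41.2 and 33.4 CPM at 20 min, 40 min, 1 h and 2 h, and 0.535 and 0.361 CPM at 8 h and 12 h. The labelled level at 1 h was 2.27 times that at 0 h although the label had been washed out. The labelled share nevertheless went down at each time to 2 h, with 72.8% (interval 66.4 to 78.6%) at 0 h, 43.2% (interval 39.9 to 46.6%) at 1 h and 30.4% (interval 27.6 to 33.4%) at 2 h. The curve passed with adjusted p = 3.86e-05.

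The counted 3′ segments start at hg19 position 212792898 on chromosome 1 (ATF3, plus strand), 49379231 on chromosome 19 (PPP1R15A, plus), 57910376 on chromosome 12 (DDIT3, minus), 28607314 on chromosome 1 (SESN2, plus), 46751972 on chromosome 12 (SLC38A2, minus) and 39918608 on chromosome 22 (ATF4, plus). The plot of labelled and unlabelled reads shows these 6 mRNAs.

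**Figure D4:**
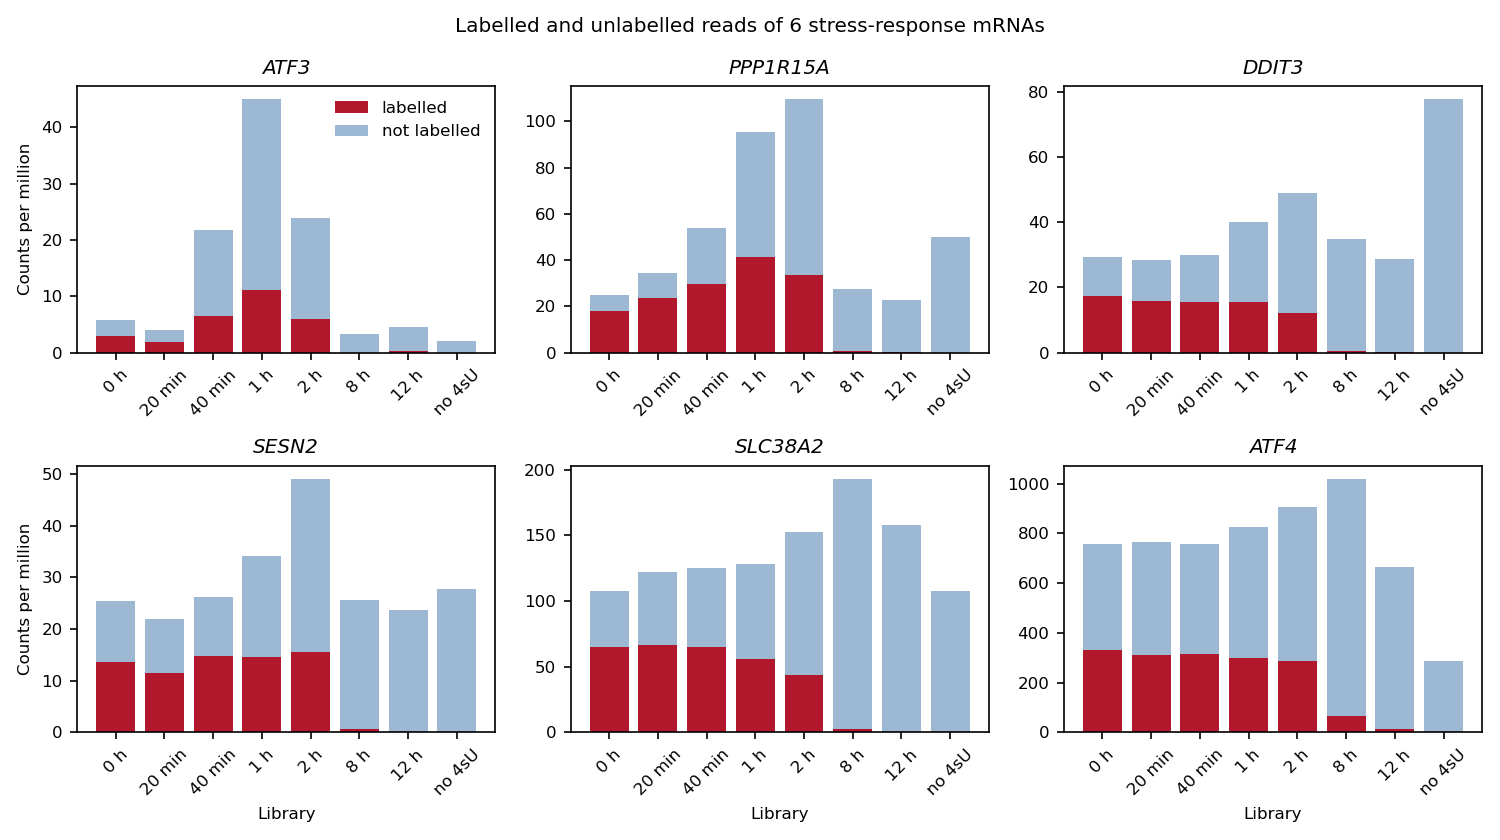
Labelled (red) and unlabelled (blue) CPM of 6 stress-response mRNAs in the 7 chase libraries and, at the right, without 4sU; bars start at 0 and each panel has its own scale. Labelled ATF3 and PPP1R15A reads peak at 1 h at 11.1 and 41.2 CPM, and labelled reads are nearly gone at 8 h in all panels but ATF4.

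DDIT3 encodes CHOP, a factor tied to cell death in prolonged stress. DDIT3 had 29.4 CPM at 0 h, 28.5, 29.9, 40.1 and 48.9 CPM at 20 min, 40 min, 1 h and 2 h, and 34.8 and 28.8 CPM at 8 h and 12 h, against 77.8 CPM without 4sU. All 7 chase libraries lay below the level without 4sU. The labelled share was 58.6% (interval 52.3 to 64.7%) at 0 h, 24.6% (interval 20.6 to 28.9%) at 2 h and 1.79% (interval 0.725 to 3.66%) at 8 h. DDIT3 also passed the curve test (adjusted p = 0.00926), but not without the 2 h library (adjusted p = 0.119).

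ATF4 is the central factor of the response and is controlled mainly through translation. ATF4 had 758 CPM at 0 h, 766, 757, 824 and 906 CPM at 20 min, 40 min, 1 h and 2 h, and 1020 and 663 CPM at 8 h and 12 h, against 286 CPM without 4sU. Its level was highest at 8 h and lowest at 12 h, and every chase library lay above the library without 4sU. The labelled share was 43.7% (interval 42.5 to 44.9%) at 0 h, 31.8% (interval 30.7 to 32.8%) at 2 h and 6.49% (interval 6.04 to 6.96%) at 8 h. The trend over 12 h was -0.16 ± 0.15 log2 units (adjusted p = 0.388). It turned to 0.40 without the 12 h library (adjusted p = 0.0144) and was -0.37 without the 8 h library (adjusted p = 0.0173), so the last libraries set its direction.

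ATF5, a relative of ATF4 with a similar translational control, ended the chase higher. ATF5 had 98.3 CPM at 0 h, 87.5, 85.2, 78.7 and 79.5 CPM at 20 min, 40 min, 1 h and 2 h, and 124 and 136 CPM at 8 h and 12 h, against 109 CPM without 4sU. It rose by 0.56 ± 0.13 log2 units over 12 h (adjusted p = 0.00309), a call lost without the 12 h library (adjusted p = 0.0688). TRIB3 had 31.3 CPM at 0 h, 31.6, 31.8, 37.3 and 36.8 CPM at 20 min, 40 min, 1 h and 2 h, and 28.5 and 25.5 CPM at 8 h and 12 h, against 152 CPM without 4sU. TRIB3, a pseudokinase that restrains ATF4, fell by 0.54 ± 0.15 log2 units (adjusted p = 0.0108), and this call was lost without the same library (adjusted p = 0.104). TRIB3 was far lower in all 7 chase libraries than without 4sU.

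NUPR1 and JDP2 shared a low 12 h value. NUPR1 had 56.1 CPM at 0 h, 57.9, 57.7, 65.7 and 68.5 CPM at 20 min, 40 min, 1 h and 2 h, and 75.1 and 35.5 CPM at 8 h and 12 h, against 41.1 CPM without 4sU. NUPR1 changed in the curve test (adjusted p = 0.0272), which was lost without the 1 h library (adjusted p = 0.0563) or the 12 h library (adjusted p = 0.0510). JDP2 had 37.8 CPM at 0 h, 39.2, 36.9, 35.7 and 43.2 CPM at 20 min, 40 min, 1 h and 2 h, and 49.4 and 22.3 CPM at 8 h and 12 h, against 48.0 CPM without 4sU. JDP2, a repressor that pairs with JUN, passed neither the curve (adjusted p = 0.137) nor the trend (-0.49 ± 0.26 log2 units over 12 h, adjusted p = 0.131). Without the 8 h library JDP2 passed both (curve, adjusted p = 0.000982; trend, -0.92 log2 units, adjusted p = 0.00151). The NUPR1 trend of -0.51 ± 0.24 log2 units (adjusted p = 0.0969) became -0.89 without the 8 h library (adjusted p = 0.00203).

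Of the 5 stress effectors, SESN2 rose early and STC2 late. SESN2 encodes sestrin 2, a leucine sensor that holds back mTORC1. SESN2 had 25.4 CPM at 0 h, 21.9, 26.2, 34.2 and 49.1 CPM at 20 min, 40 min, 1 h and 2 h, and 25.6 and 23.6 CPM at 8 h and 12 h, against 27.8 CPM without 4sU. The 2 h level was 1.86 times the 0 h level on the TMM scale, and by 8 h it was 0.883 times. The labelled share of SESN2 was 53.9% (interval 47.0 to 60.5%) at 0 h, 31.5% (interval 27.2 to 36.1%) at 2 h and 2.44% (interval 0.986 to 4.96%) at 8 h, and its labelled level at 2 h was 113% of that at 0 h.

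STC2 encodes stanniocalcin 2, a secreted glycoprotein. STC2 had 5.97 CPM at 0 h, 5.79, 8.49, 6.33 and 7.12 CPM at 20 min, 40 min, 1 h and 2 h, and 26.5 and 13.4 CPM at 8 h and 12 h, against 1.37 CPM without 4sU. Its levels rest on 51 to 297 reads per chase library, and the 8 h library stood out at 3.88 times the 0 h level on the TMM scale. STC2 rose by 1.66 ± 0.42 log2 units over 12 h (adjusted p = 0.00583). CHAC1 had 14.6 CPM at 0 h, 10.1, 12.99, 10.9 and 17.0 CPM at 20 min, 40 min, 1 h and 2 h, and 9.36 and 9.28 CPM at 8 h and 12 h, against 3.09 CPM without 4sU. CHAC1 lay higher in every chase library than without 4sU, where it had 9 reads. Its trend of -0.71 ± 0.28 log2 units stood at the threshold (adjusted p = 0.0501), and it passed in 5 of 12 alternatives.

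DDIT4 and VLDLR passed no test of total level. DDIT4 had 16.9 CPM at 0 h, 19.6, 14.7, 9.66 and 17.1 CPM at 20 min, 40 min, 1 h and 2 h, and 15.2 and 19.5 CPM at 8 h and 12 h, against 35.0 CPM without 4sU. DDIT4, which encodes the mTORC1 inhibitor REDD1, was lowest at 1 h, where it had 87 reads. VLDLR had 18.8 CPM at 0 h, 17.9, 15.7, 19.3 and 15.5 CPM at 20 min, 40 min, 1 h and 2 h, and 20.3 and 17.8 CPM at 8 h and 12 h, against 32.6 CPM without 4sU. VLDLR, a lipoprotein receptor, varied by 1.31 times between its lowest and highest chase library.

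The ER-stress pair varied little over the chase. XBP1 had 57.1 CPM at 0 h, 61.5, 59.4, 63.2 and 60.1 CPM at 20 min, 40 min, 1 h and 2 h, and 59.2 and 60.1 CPM at 8 h and 12 h, against 199 CPM without 4sU. XBP1, the transcription factor whose mRNA is spliced by IRE1, varied by 1.11 times among chase libraries, all far below the level without 4sU. Counts at the 3′ end do not separate its spliced from its unspliced form. HERPUD1 had 54.0 CPM at 0 h, 58.4, 56.4, 51.7 and 57.8 CPM at 20 min, 40 min, 1 h and 2 h, and 68.8 and 71.0 CPM at 8 h and 12 h, against 77.8 CPM without 4sU. HERPUD1 rose by 0.25 ± 0.10 log2 units over 12 h (adjusted p = 0.0444), a call lost in 10 of 12 alternatives (adjusted p up to 0.174). The XBP1 labelled share was 65.4% (interval 61.0 to 69.6%) at 0 h, 47.0% (interval 42.8 to 51.4%) at 2 h and 2.11% (interval 1.16 to 3.51%) at 8 h.

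Of the 7 transporters 4 rose over 12 h and 1 fell, against 27.4% and 23.9% of all genes tested. SLC38A1 imports glutamine and other small neutral amino acids. SLC38A1 had 59.9 CPM at 0 h, 65.6, 61.3, 66.6 and 65.5 CPM at 20 min, 40 min, 1 h and 2 h, and 125 and 159 CPM at 8 h and 12 h, against 128 CPM without 4sU. It was flat to 2 h and stood at 1.83 and 2.38 times the 0 h level at 8 and 12 h on the TMM scale. The rise was 1.30 ± 0.09 log2 units over 12 h (adjusted p = 2.03e-06). Its labelled share was 46.9% (interval 42.6 to 51.3%) at 0 h, 36.7% (interval 32.8 to 40.8%) at 2 h and 7.69% (interval 6.35 to 9.21%) at 8 h.

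SLC1A5, the main glutamine importer of many cancer cells, followed the same course. SLC1A5 had 98.5 CPM at 0 h, 104, 109.5, 100 and 106 CPM at 20 min, 40 min, 1 h and 2 h, and 197 and 197 CPM at 8 h and 12 h, against 191 CPM without 4sU. The levels at 8 and 12 h were 1.75 and 1.80 times the 0 h level on the TMM scale, and all earlier libraries lay together. The rise was 0.98 ± 0.11 log2 units over 12 h (adjusted p = 3.02e-05).

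SLC7A11 is the cystine importer that supplies glutathione synthesis. SLC7A11 had 29.7 CPM at 0 h, 29.04, 30.5, 39.7 and 39.1 CPM at 20 min, 40 min, 1 h and 2 h, and 64.0 and 59.4 CPM at 8 h and 12 h, against 74.4 CPM without 4sU. It rose by 0.95 ± 0.16 log2 units over 12 h (adjusted p = 0.000612), and all chase libraries lay below the level without 4sU. SLC38A2, which ATF4 raises in amino-acid shortage, rose in both the early and the full trend. SLC38A2 had 108 CPM at 0 h, 122, 125, 128 and 153 CPM at 20 min, 40 min, 1 h and 2 h, and 193 and 158 CPM at 8 h and 12 h, against 108 CPM without 4sU. The rise over 12 h was 0.42 ± 0.15 log2 units (adjusted p = 0.0310). That call was lost without the 0 h, 20 min, 40 min, 1 h or 8 h library (adjusted p = 0.0744, 0.0641, 0.0581, 0.0533 and 0.110). Its labelled share was 60.3% (interval 57.0 to 63.4%) at 0 h, 28.5% (interval 26.1 to 30.9%) at 2 h and 1.29% (interval 0.859 to 1.86%) at 8 h.

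SLC3A2 is the heavy chain that carries SLC7A11 and SLC7A5 to the cell surface, and it moved the other way. SLC3A2 had 403 CPM at 0 h, 408, 398, 424 and 461 CPM at 20 min, 40 min, 1 h and 2 h, and 322 and 229 CPM at 8 h and 12 h, against 85.4 CPM without 4sU. It fell by 0.97 ± 0.12 log2 units over 12 h (adjusted p = 5.18e-05), with 0.512 times the 0 h level at 12 h on the TMM scale. The SLC3A2 labelled share was 62.2% (interval 60.6 to 63.8%) at 0 h, 45.7% (interval 44.1 to 47.2%) at 2 h and 4.86% (interval 4.18 to 5.62%) at 8 h. SLC7A5 had 73.1 CPM at 0 h, 66.0, 67.0, 54.1 and 74.5 CPM at 20 min, 40 min, 1 h and 2 h, and 123 and 83.2 CPM at 8 h and 12 h, against 187 CPM without 4sU. SLC7A5, the light chain for leucine and other large neutral amino acids, was highest at 8 h but did not pass the trend (0.52 ± 0.21, adjusted p = 0.0596). SLC1A4 had 67.8 CPM at 0 h, 57.7, 61.9, 63.9 and 64.1 CPM at 20 min, 40 min, 1 h and 2 h, and 87.8 and 77.6 CPM at 8 h and 12 h, against 27.4 CPM without 4sU. SLC1A4, an importer of serine and alanine, had a trend of 0.29 ± 0.11 log2 units (adjusted p = 0.0529). Without the 12 h library the trends of both passed (adjusted p = 0.00230 for SLC7A5 and 0.0200 for SLC1A4).

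Within serine and one-carbon metabolism the enzymes did not move as a block. PHGDH, PSAT1 and PSPH catalyse the 3 successive steps from a glycolytic intermediate to serine. PHGDH had 95.5 CPM at 0 h, 93.9, 94.5, 88.6 and 92.4 CPM at 20 min, 40 min, 1 h and 2 h, and 90.1 and 82.5 CPM at 8 h and 12 h, against 21.6 CPM without 4sU. PHGDH fell by 0.31 ± 0.08 log2 units over 12 h on the TMM scale (adjusted p = 0.00900). Its 12 h level was 0.777 times the 0 h level on that scale but 0.864 times in CPM, where it ranged from 82.5 to 95.5. PSAT1 had 94.4 CPM at 0 h, 100.1, 101, 99.1 and 111 CPM at 20 min, 40 min, 1 h and 2 h, and 178 and 137 CPM at 8 h and 12 h, against 79.6 CPM without 4sU. PSAT1 rose by 0.59 ± 0.15 log2 units (adjusted p = 0.00560), with 1.65 times the 0 h level at 8 h on the TMM scale. PSPH had 34.0 CPM at 0 h, 29.9, 38.0, 32.3 and 36.6 CPM at 20 min, 40 min, 1 h and 2 h, and 59.2 and 39.6 CPM at 8 h and 12 h, against 10.3 CPM without 4sU. PSPH was also highest at 8 h but did not pass the trend (0.41 ± 0.20, adjusted p = 0.109). The call for PSPH was made without the 12 h library (1.06 log2 units, adjusted p = 0.00199).

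The mitochondrial enzymes that turn serine into one-carbon units also split. SHMT2 had 266 CPM at 0 h, 278, 264, 276 and 282 CPM at 20 min, 40 min, 1 h and 2 h, and 236 and 205 CPM at 8 h and 12 h, against 191 CPM without 4sU. SHMT2, which splits serine into glycine and a one-carbon unit, fell by 0.56 ± 0.08 log2 units over 12 h (adjusted p = 0.000149). MTHFD2 had 253 CPM at 0 h, 258, 269, 262 and 284 CPM at 20 min, 40 min, 1 h and 2 h, and 359 and 311 CPM at 8 h and 12 h, against 174 CPM without 4sU. MTHFD2, a folate dehydrogenase of the same branch, rose by 0.23 ± 0.09 log2 units (adjusted p = 0.0459), a call lost in 10 of 12 alternatives (adjusted p up to 0.105). MTHFD1L had 25.8 CPM at 0 h, 29.3, 31.5, 26.5 and 30.4 CPM at 20 min, 40 min, 1 h and 2 h, and 38.0 and 27.8 CPM at 8 h and 12 h, against 39.1 CPM without 4sU. MTHFD1L, which releases formate at the end of the branch, passed no test of total level (trend 0.02 ± 0.17, adjusted p = 0.933).

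Labelled shares of 3 of these enzymes kept their order up to 8 h but not at 12 h. PHGDH had 14.1% (interval 11.8 to 16.6%) at 0 h, 13.2% (interval 11.02 to 15.8%) at 2 h and 8.01% (interval 6.41 to 9.86%) at 8 h, where its share was 57.0% of that at 0 h. SHMT2 had 22.9% (interval 21.2 to 24.6%) at 0 h, 21.4% (interval 19.8 to 23.1%) at 2 h and 12.8% (interval 11.5 to 14.1%) at 8 h. MTHFD2 began far higher at 59.8% (interval 57.7 to 61.8%), with 55.0% (interval 53.1 to 57.0%) at 2 h and 14.8% (interval 13.7 to 15.9%) at 8 h. The intervals of SHMT2 and PHGDH lay below those of MTHFD2 at 0 and 2 h, and at 8 h the interval of SHMT2 overlapped that of MTHFD2. At 12 h MTHFD2 had the lowest of the 3 shares, at 3.30% (interval 2.64 to 4.06%), against 7.16% (interval 5.98 to 8.49%) for SHMT2 and 7.30% (interval 5.47 to 9.51%) for PHGDH, whose intervals overlap.

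The other 4 tested amino-acid enzymes all had half-lives of over 4 h. ASNS had 13.3 CPM at 0 h, 11.3, 13.5, 15.2 and 11.3 CPM at 20 min, 40 min, 1 h and 2 h, and 22.7 and 20.1 CPM at 8 h and 12 h, against 8.57 CPM without 4sU. ASNS, which makes asparagine and is a classic ATF4 target, rose by 0.69 ± 0.20 log2 units over 12 h (adjusted p = 0.0143), from 100 to 255 reads per chase library. PYCR1 had 56.6 CPM at 0 h, 60.01, 61.3, 51.5 and 49.98 CPM at 20 min, 40 min, 1 h and 2 h, and 41.2 and 36.1 CPM at 8 h and 12 h, against 218 CPM without 4sU. PYCR1 fell by 0.86 ± 0.12 log2 units (adjusted p = 0.000144), and every chase library lay far below the level without 4sU. CBS had 146 CPM at 0 h, 141, 145, 154 and 124 CPM at 20 min, 40 min, 1 h and 2 h, and 136 and 154 CPM at 8 h and 12 h, against 59.0 CPM without 4sU. CBS, counted together with CBSL, passed no test of total level (trend -0.10 ± 0.11, adjusted p = 0.478). ALDH18A1 had 37.3 CPM at 0 h, 44.5, 45.3, 39.3 and 37.3 CPM at 20 min, 40 min, 1 h and 2 h, and 37.2 and 40.1 CPM at 8 h and 12 h, against 47.7 CPM without 4sU. ALDH18A1 passed none either (trend -0.24 ± 0.14, adjusted p = 0.173), although its curve passed without the 0 h library (adjusted p = 0.0479). The pair of proline enzymes, PYCR1 and ALDH18A1, had labelled shares of 16.4% (interval 13.3 to 20%) and 36.6% (interval 31.4 to 42.1%) at 0 h.

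The end of the pulse was set beside cells that never received 4sU, as values only, since each has 1 library. At least 2-fold higher at 0 h were 9 of the 32 members with 30 or more reads in both libraries together, and 9 were at least 2-fold lower. Over 10355 genes these shares were 20.1% higher and 18% lower, so 38.1% of all genes differed by 2-fold or more. The median log2 ratio of the members was -0.14, against -0.01 over all genes. The library without 4sU also stood apart in LYZ, a lysozyme gene of myeloid cells, at 423.5 CPM at 0 h and 45.6 CPM without 4sU. The part that this difference plays in the ratios below was not tested.

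Higher at 0 h were CHAC1 (4.72-fold, 95% counting interval 2.41 to 10.6), SLC3A2 (4.72-fold, 4.15 to 5.38), PHGDH (4.42-fold, 3.42 to 5.81), STC2 (4.35-fold, 1.60 to 16.6) and PSPH (3.30-fold, 2.27 to 4.98). ATF3 (2.85-fold, 1.22 to 8.11), ATF4 (2.65-fold, 2.47 to 2.86), SLC1A4 (2.47-fold, 1.955 to 3.16) and CBS (2.47-fold, 2.10 to 2.91) followed. STC2 and ATF3 rest on 4 and 6 reads without 4sU, and their intervals are wide. Lower at 0 h was above all TRIB3, at 0.207 times the level without 4sU (0.177 to 0.241), then PYCR1 at 0.260 (0.231 to 0.293), XBP1 at 0.287 (0.254 to 0.324) and DDIT3 at 0.378 (0.315 to 0.453). SLC7A5 at 0.392 (0.349 to 0.440), SLC7A11 at 0.3996 (0.332 to 0.481), SLC38A1 at 0.469 (0.409 to 0.536), DDIT4 at 0.483 (0.372 to 0.627) and PPP1R15A at 0.498 (0.402 to 0.618) were also below the 2-fold line. PPP1R15A crossed that line with TMM factors (0.516) and with the mean of the 0, 20 and 40 min libraries (0.754), and 8 members were then lower.

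Known targets of ATF4 stood on both sides of equality. By role, 2 of 8 regulators were higher and 3 lower, and 2 of 5 effectors were higher and 1 lower. Of 7 transporters 2 were higher and 3 lower, and of 6 serine and one-carbon enzymes 2 were higher and none lower. Of the 4 other enzymes 1 was higher and 1 lower, and of the 2 ER genes none was higher and 1 was lower. Over all genes 20.1% were higher and 18% lower, and differences between roles were not tested. The heavy chain SLC3A2 was higher at 0 h, and its light chains SLC7A5 and SLC7A11 were lower. SLC38A2 and SESN2 were nearest to equal levels at 0 h, at 0.995 and 0.913 times the level without 4sU.

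**Figure D5:**
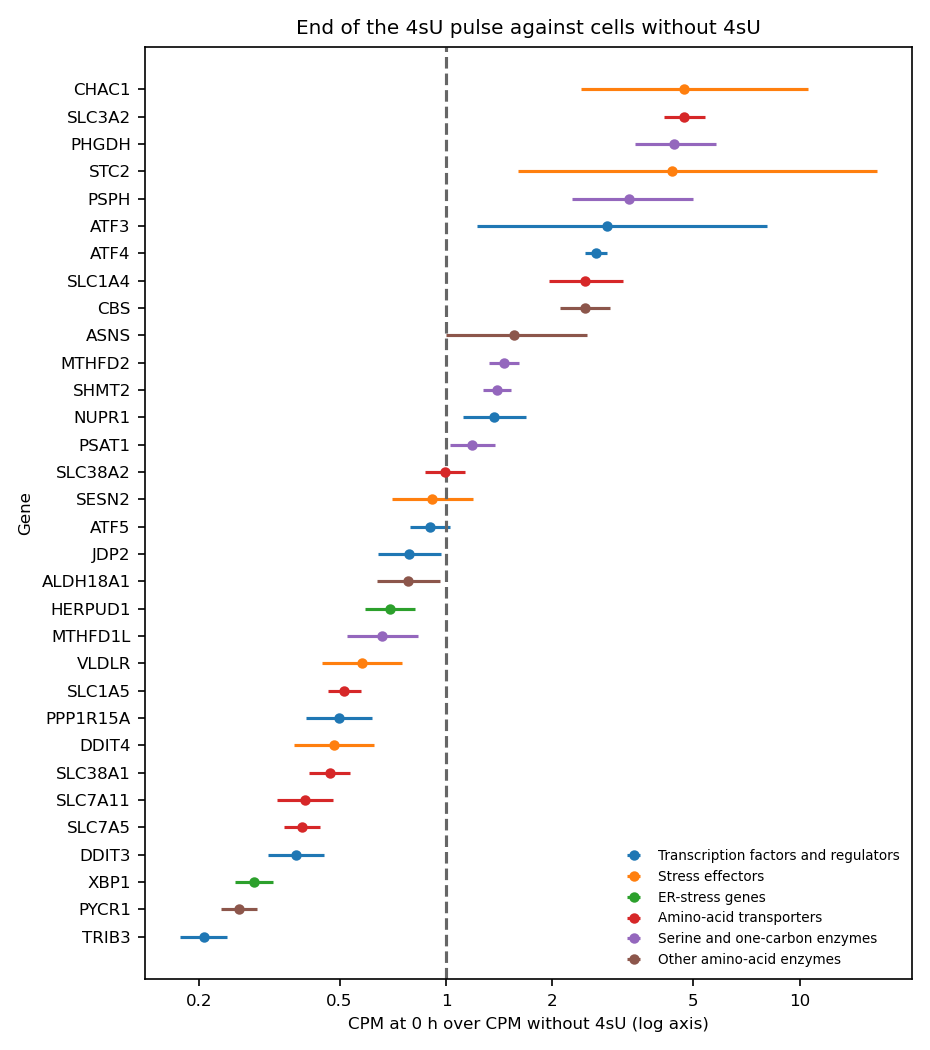
Ratio of CPM at 0 h of the chase to CPM without 4sU (log axis) for the 32 members with at least 30 reads in both libraries together, with 95% exact counting intervals and colours by role; 1 library per condition. The ratios run from 0.207 for TRIB3 to 4.72 for CHAC1.

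Other genes of these pathways were followed as lists. Of 20 genes of the eIF2 kinases, subunits, exchange factor and phosphatases, 10 rose and 4 fell over 12 h, against 27.4% and 23.9% of all genes tested. The curve test was passed by 14, against 51.8% of all genes, and 1 rose early, against 4.17%. That one was EIF2AK3, which encodes the ER-stress kinase PERK, at 1.46 ± 0.35 log2 units over 2 h (adjusted p = 0.0250). Half-lives of this list had a median of 3.21 h, from 1.32 ± 0.29 h for EIF2AK3 to 10.6 ± 1.6 h for EIF2S3, the gamma subunit of eIF2. The EIF2AK3 fit rests on only 18.8 fitted excess reads at 0 h. Its half-life of the share also counts unlabelled RNA made after the wash as loss. EIF2B5, the catalytic subunit of the exchange factor, had the lowest p in the curve test (adjusted p = 7.53e-05).

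Of 25 further ATF4 targets 21 were tested over 12 h, and 3 rose and 7 fell, against the same shares of 27.4% and 23.9%. In the curve test 13 of them changed, against 51.8% of all genes, and 3 of 20 rose early, against 4.17%. TSC22D3, a glucocorticoid-induced leucine zipper, had the lowest p in the curve test (adjusted p = 3.33e-06) and was 1 of those 3 (1.66 ± 0.20 log2 units over 2 h, adjusted p = 0.000116). Their median half-life was 2.60 h, close to that of the members, and the shortest was that of CCDC174 at 1.78 ± 0.23 h.

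Of 20 ER chaperones and degradation genes, 4 rose and 9 fell over 12 h, against 27.4% and 23.9% of all genes tested, and 14 changed in the curve test, against 51.8%. None passed the early test in edgeR, although 4 had an unadjusted p under 0.05, a threshold at which all genes were not counted. CALR, the chaperone calreticulin, fell by 0.95 ± 0.08 log2 units over 12 h and had the lowest p of the curve test (adjusted p = 1.51e-06). Over the 16 of 18 genes with a resolved half-life its median was 3.53 h, from SEL1L at 2.56 ± 0.25 h to CANX, the chaperone calnexin, at 22.0 ± 5.0 h. The fits of the other 2, CALR and PDIA6, gave 25.9 h (95% interval 11.7 to 57.6 h) and 57.1 h (12.8 to 254 h). Both lie past the 24 h limit and are left out of that median. The label decline of PDIA6 was also not called (-0.02 ± 0.02 log2 per hour, adjusted p = 0.199, edgeR), so its half-life is not determined. PDIA6, a protein disulphide isomerase, is named after its value was seen. At 0 h 1 of the 20 was at least 2-fold higher and 11 at least 2-fold lower than without 4sU, against 20.1% and 18% of all genes. The same counts were 3 higher and 5 lower of 20 in the eIF2 list. Among further ATF4 targets 8 of 21 were higher and 5 lower. Of 23 other amino-acid enzymes and transporters 1 was higher and 3 were lower.

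Of 24 tested among 27 other amino-acid enzymes and transporters, 7 rose and 6 fell over 12 h, and 12 changed in the curve test. All 3 counts lie near the shares over all genes of 27.4%, 23.9% and 51.8%. None passed the early test in edgeR, with 1 at an unadjusted p under 0.05, where again all genes were not counted. GLUL, glutamine synthetase, fell by 1.80 ± 0.12 log2 units over 12 h (curve, adjusted p = 3.16e-07). Half-lives had a median of 3.43 h, from SLC36A1, a lysosomal amino-acid exporter, at 2.12 ± 0.18 h to OAT, ornithine aminotransferase, at 9.18 ± 2.34 h.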

How the data were processed

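THP-1 cells were profiled by 3′-end sequencing (QuantSeq 3′ FWD with an S2 spike-in, per the labels' protocols), with 1 library for each of 8 conditions. The authors deposited raw counts per 3′ UTR segment, as all reads and as converted ("nascent") reads, called labelled here. Builds hg19 and dm3, with Trim Galore 0.6.5 and bcl2fastq 2.17.1.14, are listed per the submitters' processing notes. How many conversions make a read labelled, and which aligner and counter were used, is not stated there, so a share rests on an unknown threshold. Spike-in reads were not used here.

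GENCODE 29 named 48045 of 56570 transcripts (84.9%), and unnamed segments held 5.65% of the counts. A gene took its most covered segment. Left out were 3056 segments on other contigs and 85 genes with counts equal to another gene's. The members and the other gene lists were chosen with earlier results of these data known. Values in every library are given for members with a mean of at least 50 reads, and at most 3 genes are named from each other list: the lowest p of the curve and the shortest and longest half-life. One such half-life is not reported here.

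Tests used edgeR 4.0.16 (R 4.3.3), quasi-likelihood, fitted over all genes with calls at a Benjamini-Hochberg adjusted p under 0.05. Label decline was the labelled count against hours with the gene's own total as offset (mean total of at least 50, at least 20 labelled reads, 5 residual degrees of freedom). Total counts with TMM factors (mean of at least 20) were tested against hours over 7 libraries, against log2(1 + hours) with its square, and against hours over the 5 libraries to 2 h, with 3 residual degrees of freedom. Half-lives came from a binomial fit of background plus exponential decay in SciPy 1.17.1, with standard errors widened for scatter. Resolved half-lives had a called decline, 10 or more fitted excess reads at 0 h, a log rate known to within 0.5 (SE) and a value from 0.25 to 24 h. The scripts were tested on simulated data. DESeq2 1.42.0, other filters, other scales and leaving out each library were the alternatives.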

Additional observations from a re-analysis of the deposited data

How the results depend on the processing

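No paired analysis was possible because each condition has 1 library. Without 1 chase library at a time, the decline was called for 32 members each time and for 8520 to 8990 genes. The median half-life of members ran from 2.35 to 3.08 h, and the curve was called for 16 to 21 members and 4762 to 5266 genes. Over 12 h, 7 to 12 members rose and 4 to 8 fell (8 without the 20 min library and 8 without the 8 h library), with 2485 to 2895 genes up and 2203 to 2656 down. Up to 2 h, 2 to 6 members rose and 0 to 1 fell, with 154 to 544 genes up and 51 to 183 down; without the 2 h library SLC7A5 was called lower.

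With the 0 to 2 h libraries only, the decline was called for 15 members and 2998 genes and the median half-life of members was 5.29 h. The slopes of ATF5, NUPR1, MTHFD1L, CBS and PYCR1 then turned upward at 0.0052, 0.0121, 0.0171, 0.0606 and 0.0504 log2 per hour, none of them called. The decline calls of PHGDH and PYCR1 were lost with log2(1 + hours) as time (adjusted p = 0.101 and 0.0654, edgeR). DESeq2 called 284 genes up and 68 down up to 2 h, and without a filter on low counts edgeR called 178 down. The ATF4 trend over 12 h reversed to 0.40 log2 units without the 12 h library and was -0.37 without the 8 h library. Summing segments and other scaling kept the counts of members called within 1.5 times. A background of 0 applied to half-lives only and gave a median of members of 2.61 h. The causes were not tested. Depth limits CTH, STC2, CHAC1 and ATF3 most, with the no 4sU library holding 4 to 9 reads of each.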
